A study of Mus musculus with 17 samples.

Results

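The genes described here are Gc, Afm, Reg2, Pamr1, Robo2, Caps2, Sncaip, Sntb1, Il23r and Alox5, 10 of the 23980 genes listed in the mouse expression tables. They are protein-coding genes that the study paired with an active copy of the retrotransposon L1 lying inside or upstream of the gene, and they were found in the tables by symbol. The study had listed all 10 from these same spermatocyte libraries, for a rise in the Pld6 mutant and also for a rise in the Dnmt3l mutant, so the genes were selected on their fragment counts there, and the differences of these genes at that stage are given as a description with no test. The study's list of L1-linked genes in the Pld6 mutant has 1 further entry, Nckap1l, which was not among the genes chosen.

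L1 elements are autonomous retrotransposons whose 5′ end carries a promoter, so that a full-length copy can start transcription within or beside a gene. In male germ cells these promoters are silenced before birth, by PIWI-interacting RNAs (piRNAs) and by de novo DNA methylation. An unsilenced copy can start a transcript that runs on into the exons of a nearby gene, whatever tissue that gene normally serves.

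All mice were on a C57BL/6J background. Leptotene/zygotene (L/Z) spermatocytes, early meiotic germ cells sorted by flow cytometry from males aged 3 to 4 weeks, gave 2 libraries each of wild type (WT), Pld6 knockout (KO) and Dnmt3l KO. Whole testes from the day of birth (P0), in which somatic cells surround the prospermatogonia, gave 2 WT, 4 Pld6 KO, 2 Dnmt3l KO and 3 double knockout (DKO) libraries. Pld6 encodes a mitochondrial enzyme of piRNA production and Dnmt3l a cofactor of the de novo DNA methyltransferases. The labels name no tissue-specific driver for either deletion, and the DKO lacked both genes.

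Total fragments ranged from 5194238 to 14578341 in the L/Z libraries and from 9900346 to 23498968 at P0. The deleted genes matched the labels: Pld6 had 0 counts in both L/Z Pld6 KO libraries against 344 and 352 in WT, and at most 2 counts in the Pld6 KO and DKO libraries at P0 against 57 and 40 in WT, while Dnmt3l had 0 counts in both L/Z Dnmt3l KO libraries against 19 and 11 in WT. At P0 Dnmt3l had at most 3 counts in the Dnmt3l KO and DKO libraries against 53 and 72 in WT. The 45S ribosomal RNA gene took 8.27% (WT replicate 1) and 8.06% (Pld6 KO replicate 1) of the fragments at L/Z, and at most 0.30% in the other 4 libraries. The 13 L/Z spermatocyte markers summed to between 2770 and 9880 fragments scaled to library size (CPM) in the L/Z libraries, where 9 Sertoli cell markers still summed to between 105 and 597 and 9 leukocyte markers to between 18.6 and 63.0. At P0 the 9 prospermatogonia markers summed to 126 CPM in Pld6 KO replicate 1 and to between 233 and 527 in the other 10 libraries.

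The elements paired with the genes were of the L1Md_T subfamily except for Pamr1, whose element was L1Md_A. They lay inside 7 genes (Gc, Afm, Pamr1, Robo2, Caps2, Sncaip and Sntb1) and upstream of 3 (Reg2, Il23r and Alox5). They ran antisense to Afm and Caps2, had no single orientation given for Il23r, and ran in the sense direction for the others. On GRCm38 (RefSeq coordinates) Gc spans chr5:89417511-89457898 and Afm chr5:90518949-90553544, 1.06 Mb apart. Reg2 spans chr6:78405155-78408099, Il23r chr6:67422932-67491855 and Alox5 chr6:116410071-116461178. Pamr1 spans chr2:102549939-102643041, Robo2 chr16:73891976-75447443, Caps2 chr10:112163349-112216561 and Sntb1 chr15:55636388-55907302. The genes were long: their median length was 61.1 kb against 17.1 kb over 21900 protein-coding genes, and 9 of the 10 exceeded that median. Reg2, with 2.9 kb, was the exception.

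Sequences are shown for the annotated promoters of Gc, Afm and Reg2, the liver and pancreas genes among the 10, to set out the promoters annotated for them apart from any L1 element. Each sequence is the 250 bases before the RefSeq start on the gene's own strand (GRCm38.p6), 5′ to 3′, at chr5:89457899-89458148 (minus strand) for Gc, chr5:90518699-90518948 (plus strand) for Afm and chr6:78404905-78405154 (plus strand) for Reg2. Capitals mark matches to the core of a site for the liver factor HNF1, which was searched as GTTAAT followed by any single base and then by ATTA, and to the TATA box, which was searched as TATAAA. Both were searched on both strands of 300-base windows.
Gc: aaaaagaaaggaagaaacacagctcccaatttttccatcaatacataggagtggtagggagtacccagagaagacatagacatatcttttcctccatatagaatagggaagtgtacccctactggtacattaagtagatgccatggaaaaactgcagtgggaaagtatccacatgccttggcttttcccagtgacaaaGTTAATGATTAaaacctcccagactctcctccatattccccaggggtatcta
Afm: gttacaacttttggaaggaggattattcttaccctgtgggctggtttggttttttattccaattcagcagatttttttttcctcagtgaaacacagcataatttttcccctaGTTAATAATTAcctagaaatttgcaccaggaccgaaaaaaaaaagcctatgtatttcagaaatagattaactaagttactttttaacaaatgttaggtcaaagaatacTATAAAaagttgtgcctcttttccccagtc
Reg2: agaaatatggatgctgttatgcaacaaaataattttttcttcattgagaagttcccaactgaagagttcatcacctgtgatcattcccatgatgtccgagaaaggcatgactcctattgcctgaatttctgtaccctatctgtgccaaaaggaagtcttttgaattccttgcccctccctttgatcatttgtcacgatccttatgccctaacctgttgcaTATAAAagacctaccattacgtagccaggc
The HNF1-type motif stood 52 bases before the start of Gc and 138 bases before that of Afm, and was found in 46 of 32851 promoter windows (0.14%). TATAAA stood 30 bases before the start of both Afm and Reg2, and was found in 4473 windows (13.6%). Windows were on hand for 7 of the 10 genes, and not for Pamr1, Sncaip and Sntb1. The Gc window held no CpG, as few as 5.4% of windows, and the Afm window held 1, the Il23r window 2 and the Reg2 window 3 against a median of 7 over all windows. The Caps2 window held 5, the Alox5 window 7 and the 3 windows of Robo2 held 9, 5 and 17. These matches are descriptions of the annotated promoters, and L1 sequence was not analysed here.

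In L/Z spermatocytes each of the 10 genes was higher in both libraries of either mutant than in both WT libraries. Their summed level was 4.07 and 2.64 CPM in WT, 84.9 and 85.1 CPM in the Pld6 KO and 206 and 134 CPM in the Dnmt3l KO. Over all 14662 genes tested, such a separation upward occurred in 21.6% of genes for Pld6 KO and 28.1% for Dnmt3l KO, and 0.225% and 5.47% of genes passed a false discovery rate (FDR) under 0.05 with a fold change over 2. Nothing is read from these shares about the 10 genes, because this contrast chose them. In bulk RNA of this kind fewer cells of a type and less RNA per cell cannot be told apart.

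**Figure D1:**
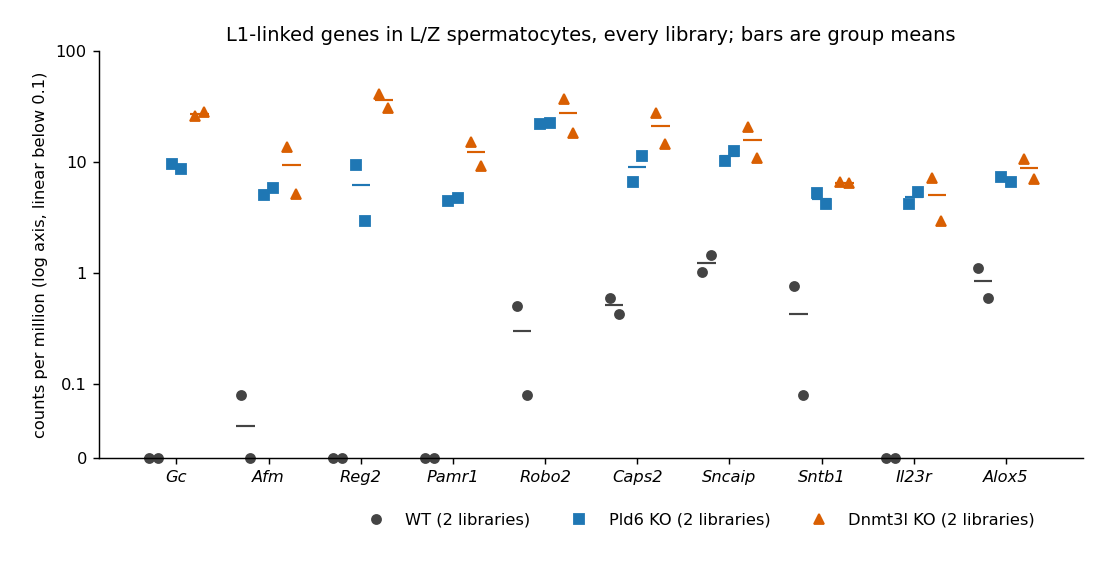
CPM of each L1-linked gene in the 6 L/Z libraries, on a log axis that is linear below 0.1; points are libraries and bars are the means of 2 libraries. Gc, Reg2, Pamr1 and Il23r lie at 0 in both WT libraries, and the lowest mutant value of the 10 genes is 2.92 CPM (Reg2 in Pld6 KO replicate 2).

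Of the 3 genes known for secreted products of liver or pancreas, Gc encodes the vitamin D-binding protein of plasma. Gc had 0 counts in both WT libraries, 67 and 109 counts in the Pld6 KO and 130 and 397 in the Dnmt3l KO. Scaled to library size this was 9.17 ± 0.81 CPM (SD, n = 2) in the Pld6 KO and 27.2 ± 1.71 CPM (SD, n = 2) in the Dnmt3l KO. With 3 counts per library as the floor in WT, Gc was at least 36.0-fold higher in the Pld6 KO and at least 107-fold higher in the Dnmt3l KO. The replicates of each mutant lay close together, and the Dnmt3l KO libraries both stood above the Pld6 KO libraries.

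Afm, or afamin, is a vitamin E-binding member of the albumin family that the liver secretes. It had 1 and 0 counts in the WT, 35 and 75 in the Pld6 KO and 68 and 73 in the Dnmt3l KO. The ratio of summed counts to WT, scaled to library size, was 133 in the Pld6 KO (95% exact counting interval 23.3 to 5280) and 175 in the Dnmt3l KO (30.9 to 6970), since a single WT fragment sets the denominator. Dnmt3l KO replicate 1 stood apart at 13.6 CPM, and replicate 2, at 5.22 CPM, lay between the Pld6 KO libraries at 5.09 and 5.91 CPM.

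Reg2 belongs to the Reg family of secreted lectins made by pancreatic acinar cells. No WT library had a count, Pld6 KO had 65 and 37 counts, and Dnmt3l KO had 208 and 432. Reg2 was therefore at least 24.3-fold higher in the Pld6 KO and at least 142-fold higher in the Dnmt3l KO. It was the gene with the widest gap between the Pld6 KO replicates, 9.45 and 2.92 CPM. Pamr1, a secreted protease-related protein named for its link to muscle regeneration, was at 0 in both WT libraries, at 31 and 60 counts in the Pld6 KO and at 76 and 130 in the Dnmt3l KO. Its bounds were at least 18.1-fold in the Pld6 KO and at least 48.1-fold in the Dnmt3l KO, and the mutants did not overlap (4.51 and 4.73 against 15.2 and 9.30 CPM).

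Robo2 and Il23r encode receptors of the cell surface. Robo2, a receptor for Slit proteins in axon guidance, had 6 and 1 counts in the WT, 153 and 287 in the Pld6 KO and 185 and 254 in the Dnmt3l KO. Its log2 fold change against WT was 6.18 ± 0.58 (SE) in the Pld6 KO and 6.46 ± 0.59 in the Dnmt3l KO, or 72.7-fold and 88.2-fold. The Pld6 KO libraries, at 22.2 and 22.6 CPM, lay between the Dnmt3l KO libraries at 37.0 and 18.2 CPM. Il23r, the receptor by which T cells respond to interleukin 23, was at 0 in both WT libraries, at 29 and 69 counts in the Pld6 KO and at 36 and 41 in the Dnmt3l KO. It was at least 19-fold higher in the Pld6 KO and at least 19.9-fold higher in the Dnmt3l KO, with the mutants overlapping.

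The remaining genes were not silent in WT but low. Caps2, an EF-hand calcium-binding protein, had 7 and 5 counts in the WT, 46 and 144 in the Pld6 KO and 138 and 206 in the Dnmt3l KO. Sncaip, which encodes the α-synuclein partner synphilin-1, had 12 and 17 counts in the WT, 71 and 161 in the Pld6 KO and 104 and 154 in the Dnmt3l KO. Sntb1, a syntrophin that links signalling proteins to the dystrophin complex, had 9 and 1 counts in the WT, 36 and 53 in the Pld6 KO and 33 and 91 in the Dnmt3l KO. These values put all 4 libraries of the mutants above both WT libraries for each gene, with fold changes of 17.5 (Caps2), 9.30 (Sncaip) and 10.8 (Sntb1) in the Pld6 KO and of 40.2, 12.6 and 15.1 in the Dnmt3l KO. Alox5, the lipoxygenase that starts leukotriene synthesis in leukocytes, had 13 and 7 counts in the WT, 51 and 84 in the Pld6 KO and 53 and 98 in the Dnmt3l KO, 8.15-fold and 10.1-fold higher. The 9 leukocyte markers summed to 32.1 and 20.5 CPM in WT, 48.8 and 18.6 in the Pld6 KO and 26.2 and 63.0 in the Dnmt3l KO. Their median log2 fold change was 0.30 in the Pld6 KO and 0.98 in the Dnmt3l KO. The part of these cells in the Alox5 and Il23r values was not tested.

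Leaving out a WT library changed the size of the differences for genes with few WT counts. The log2 fold change of Robo2 in the Pld6 KO was 7.85 without WT replicate 1 and 5.43 without WT replicate 2, that of Sntb1 was 5.59 without WT replicate 1 and 2.60 without WT replicate 2, and that of Afm was 8.80 and 5.83. In the Dnmt3l KO the same values were 8.12 and 5.71 for Robo2, 6.07 and 3.09 for Sntb1 and 9.52 and 6.56 for Afm. Within the libraries rich in 45S ribosomal RNA, Pld6 KO replicate 1 exceeded WT replicate 1 in 10 of 10 genes, and within the others each mutant library exceeded WT replicate 2 in 10 of 10. Both follow from every mutant library lying above both WT libraries, so they are no separate check.

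On the FPKM scale, which adjusts for transcript length and allows genes to be ranked, the order changed with genotype. In WT L/Z spermatocytes Sncaip was highest at a mean of 0.355 FPKM, followed by Alox5 (0.322), Sntb1 (0.216) and Caps2 (0.198), whose libraries overlapped from each to the next. Robo2 (0.0376) and Afm (0.0232) were lower, and Gc, Pamr1, Reg2 and Il23r were listed at 0. In both mutants Reg2, at 0 in WT, had the highest mean and Gc the next, though in the Pld6 KO the libraries of Reg2 (19.3 and 5.88 FPKM) overlapped those of Gc (6.05 and 5.27 FPKM). Reg2 reached 12.6 ± 9.49 FPKM (SD, n = 2) in the Pld6 KO and 74.1 ± 17 FPKM (SD, n = 2) in the Dnmt3l KO, a level that exceeded that of 93.9% of all listed genes. Gc followed at 5.66 ± 0.552 and 16.9 ± 0.691 FPKM, and in the Dnmt3l KO neither replicate of Reg2 overlapped Gc, nor Gc the next gene, Caps2 (8.30 ± 3.73 FPKM). The other genes lay within a narrow band in the Pld6 KO, from 3.50 FPKM (Caps2) to 1.73 FPKM (Pamr1), in which Pamr1 did not overlap its upper neighbour Il23r (2.10). The 3 genes with an element upstream were not set apart by level, since Reg2 was first while Il23r and Alox5 were among the lowest 4 in both mutants.

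**Figure D2:**
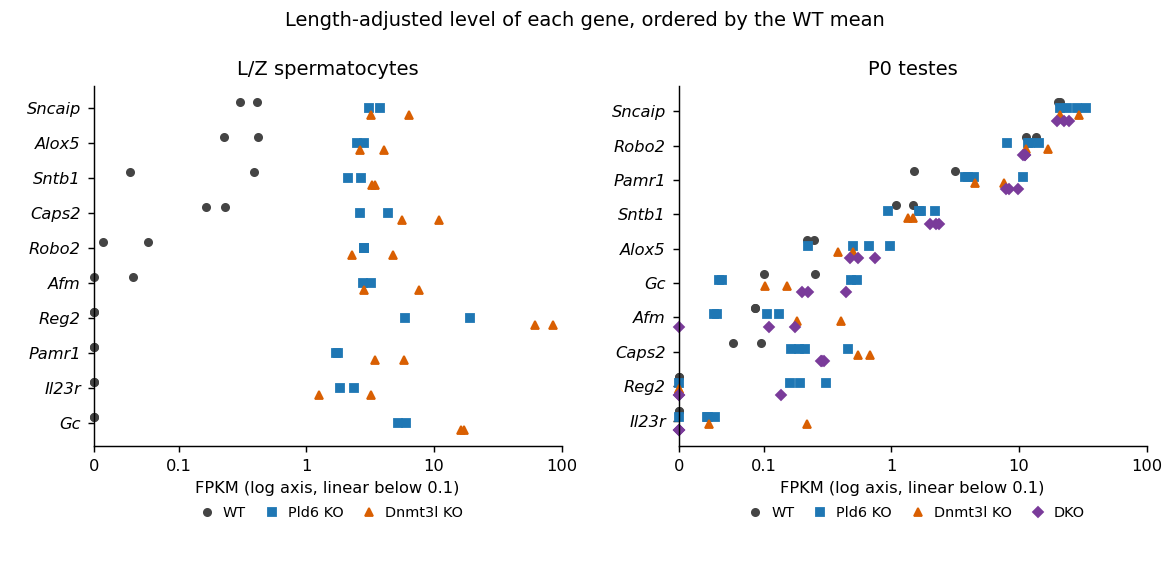
FPKM of each L1-linked gene in every L/Z library (left) and P0 library (right), on log axes that are linear below 0.1, with the genes ordered by their WT mean at that stage. In L/Z spermatocytes Reg2 moves from 0 in WT to 62.1 and 86.1 FPKM in the Dnmt3l KO, and at P0 Sncaip and Robo2 are the top genes in WT, at means of 20.6 and 12.4 FPKM.

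The excess over WT differed in size between the mutants for some of the genes, which is given as a description with no test. In Dnmt3l KO against Pld6 KO the libraries separated upward for 5 genes, which were Gc, Reg2, Pamr1, Caps2 and Sntb1, where 26.9% of all tested genes separated in that direction. Reg2 was 6.04-fold higher in the Dnmt3l KO (log2 2.60 ± 0.49), Gc 2.98-fold (1.57 ± 0.31), Pamr1 2.62-fold (1.39 ± 0.43) and Caps2 2.29-fold (1.2 ± 0.40). Sntb1 was 1.40-fold higher with a log2 difference of 0.48 ± 0.56, which was smaller than its SE although the libraries did not overlap. Afm and Sncaip, whose libraries overlapped, had log2 differences of 0.73 ± 0.53 and 0.44 ± 0.38. Il23r had a log2 difference of 0.01 ± 0.56, Robo2 of 0.28 ± 0.39 and Alox5 of 0.31 ± 0.42, each smaller than its SE. In this comparison 0 of the 13 L/Z spermatocyte markers passed the threshold by edgeR. At an unadjusted p under 0.05, 12 of them were higher, where 17.5% of all genes had such a p in either direction. Against WT, 8 of 13 passed upward in the Dnmt3l KO and 0 of 13 in the Pld6 KO (5.47% and 0.225% of all genes passed in either direction). At an unadjusted p under 0.05, 11 were higher in the Dnmt3l KO, and 2 were higher and 1 lower in the Pld6 KO. The part of these differences in the members' levels was not tested. The 9 Sertoli markers summed to 378 and 597 CPM in WT, 375 to 559 in the Pld6 KO and 105 to 360 in the Dnmt3l KO.

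The genes next to each L1-linked gene were not among the 10 and were tested. A neighbour that had risen with the same element could itself have been listed by the study. The choice therefore bears on which neighbours are left, and low counts of calls among them are no independent result. Within 100 kb of the 10 genes, or nearest beyond that distance, 33 other genes were listed, of which 13 passed the filter on low counts at L/Z. None of the 13 passed the threshold in either mutant by edgeR, where 0.225% (Pld6 KO) and 5.47% (Dnmt3l KO) of all genes tested did. Of the 13, 1 had an unadjusted p under 0.05 in the Pld6 KO and 4 did in the Dnmt3l KO. Over all genes tested, 9.17% and 26.7% had such a p. The median log2 fold change of the 13 was 0.14 in the Pld6 KO and 0.25 in the Dnmt3l KO, against 0.00 and -0.04 over all genes tested, while that of the L1-linked genes was 6.42 and 6.93, or 4.21 and 5.46 with the 4 genes at 0 in WT taken at their bounds.

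Of the 4 genes within 100 kb of Afm, Alb and Afp belong to the albumin family of the liver. The others, 5830473C10Rik and Rassf6, did not pass the filter, with at most 2 and at most 15 counts in any L/Z library. Alb, 42.3 kb away, encodes serum albumin and had 0 and 1 counts in the WT, 0 and 3 in the Pld6 KO and 0 and 0 in the Dnmt3l KO. Afp, which encodes α-fetoprotein and lies between Alb and Afm, had 217 and 119 counts in the WT, 75 and 112 in the Pld6 KO and 15 and 100 in the Dnmt3l KO. The log2 fold change of Afp was -0.54 ± 0.43 in the Pld6 KO (edgeR FDR = 0.714) and -1.42 ± 0.44 in the Dnmt3l KO (FDR = 0.0748), in the direction opposite to Afm. Afp passed the threshold in the Dnmt3l KO with no low-count filter (FDR = 0.0410), with DESeq2 (FDR = 0.0282), without WT replicate 2 (FDR = 0.0441) and without either Pld6 KO library (FDR = 0.0436 and 0.0495).

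The Reg genes beside Reg2 stayed near 0. Reg1, Reg3a, Reg3b, Reg3d and Reg3g had at most 3 counts in each of the 6 libraries, at distances of 17.9 to 58.2 kb. Il12rb2, a receptor gene 46.6 kb from Il23r, had 6 and 1 counts in the WT, 2 and 4 in the Pld6 KO and 2 and 11 in the Dnmt3l KO. Robo1, at 844.5 kb, was the nearest gene to Robo2 on the side where none lay within 100 kb. Its log2 fold change was 0.68 ± 0.24 in the Pld6 KO (edgeR FDR = 0.446) and -0.50 ± 0.25 in the Dnmt3l KO (FDR = 0.220). The largest fitted differences among neighbours were at the Caps2 locus, with Glipr1l1 at 2.71 ± 1.34 (FDR = 0.565) and Kcnc2 at 1.45 ± 0.73 (FDR = 0.576) in the Pld6 KO, and Glipr1l1 there had 3 and 0 counts in the WT and 1 and 19 in the Pld6 KO. March8, which lies 0.5 kb from Alox5, had log2 fold changes of 0.11 ± 0.21 and 0.25 ± 0.21.

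**Figure D3:**
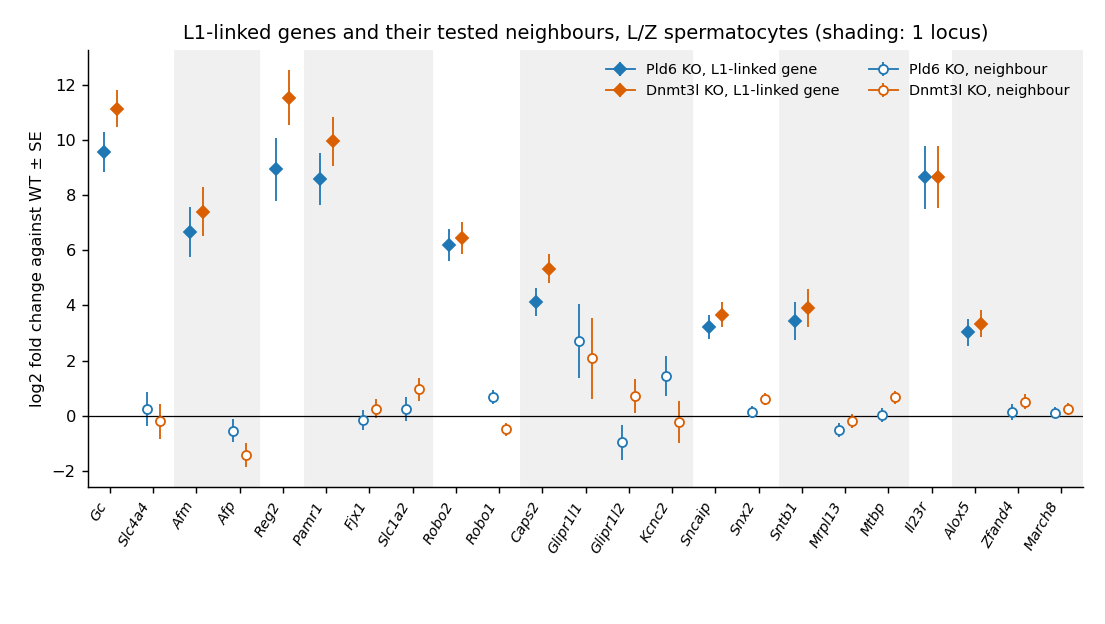
Log2 fold change against WT, with its SE, of each L1-linked gene (filled diamonds) and of its tested neighbours (open circles) in L/Z spermatocytes; each shaded or white band is 1 locus, and Reg2 and Il23r had no neighbour that passed the filter. Fitted values of Gc, Reg2, Pamr1 and Il23r rest on 0 counts in the WT and are not bounds. No neighbour is past the threshold, and Afp lies at -1.42 in the Dnmt3l KO below Afm at 7.40.

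The functional partners of the L1-linked genes were tested as 8 lists holding 102 other genes, of which 57 passed the filter at L/Z. In Pld6 KO 0 of 57 passed the threshold by edgeR, with 5 higher and 2 lower at an unadjusted p under 0.05. In Dnmt3l KO 3 of 57 passed, all higher, and 5.47% of all genes did so, while 12 were higher and 9 lower at an unadjusted p under 0.05. The shares of all genes at such a p were again 9.17% and 26.7%. These were Apoh, a phospholipid-binding plasma protein of the liver, Slit2, a ligand of Robo receptors, and Srgap1, which acts downstream of Robo receptors. Each of the 3 is on the study's own list of genes beside a derepressed IAPEZ or RLTR10 element in these Dnmt3l KO libraries, so their calls are not independent of that choice.

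Apoh had 0 and 1 counts in the WT, 7 and 0 in the Pld6 KO and 126 and 343 in the Dnmt3l KO, and it made up most of the summed hepatocyte list in the Dnmt3l KO, where Apoh was at 25.2 and 24.5 CPM of 42.0 to 47.4 CPM. Slit2 had a log2 fold change of 1.80 ± 0.22 (FDR = 0.00345) in the Dnmt3l KO and of -0.56 ± 0.22 (FDR = 0.494) in the Pld6 KO. Srgap1 had 2.34 ± 0.39 (FDR = 0.0124) and 1.37 ± 0.39 (FDR = 0.313). Without Dnmt3l KO replicate 1, 0 pathway genes passed, and without WT replicate 2, 7 did.

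By function, 0 of 6 tested genes of the vitamin D and albumin list passed in either mutant by edgeR, and Afp, which is among them, passed in the Dnmt3l KO under the other settings named above. In the hepatocyte list 1 of 6 tested genes passed in the Dnmt3l KO, which was Apoh. The summed hepatocyte list was 18.8 to 25.4 CPM in WT and 17 to 21.2 in the Pld6 KO, so that it did not move with Gc and Afm in that mutant. In the Slit and Robo list 2 of 11 tested genes passed in the Dnmt3l KO, Slit2 and Srgap1. None of 11 dystrophin and syntrophin genes, 10 synuclein partners, 6 genes of interleukin 23 signalling or 7 leukotriene genes passed in either mutant in the main edgeR fit. With no low-count filter, Dtna (log2 -1.16, FDR = 0.0455) and Cysltr2 (log2 6.36, FDR = 0.0322) passed in the Dnmt3l KO. Cysltr2 had 0 counts in both WT libraries and 7 and 10 in the Dnmt3l KO. Gpx4 passed there with a factor for the libraries rich in 45S ribosomal RNA. At an unadjusted p under 0.05 these 4 lists held 2 genes in the Pld6 KO on the higher side and 1 on the lower side, and 5 and 6 genes in the Dnmt3l KO. No gene of the 13 listed in the Reg and exocrine pancreas list passed the filter, and the list summed to between 0.552 and 2.20 CPM over the 6 libraries.

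At P0 the same genes were measured in libraries that had no part in choosing them. Here 6 of the 10 passed the filter on low counts (Pamr1, Robo2, Caps2, Sncaip, Sntb1 and Alox5), and none of the 6 passed the threshold in the Pld6 KO, Dnmt3l KO or DKO against WT by edgeR. The background was 0.00629% of genes called in the Pld6 KO, 0% in the Dnmt3l KO and 0.0126% in DKO, among 15901 tested. Unadjusted p-values under 0.05 were found for 3, 2 and 4 of these genes, all higher, where 3.14%, 6.24% and 5.14% of all genes had such a p on the higher side. The smallest FDR among them was 0.963, 0.256 and 0.341. Caps2 and Alox5 had at most 3 and 8 counts in WT, and passed the filter only through mutant libraries in which they were higher. Both had such a p in the Pld6 KO and DKO, and Caps2 also in the Dnmt3l KO. Those p-values are therefore no independent support.

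Pamr1 had 49 and 102 counts in the WT, between 131 and 294 in the 4 Pld6 KO libraries, 145 and 243 in the Dnmt3l KO and 204, 356 and 552 in DKO. In CPM it was 6.36 ± 3.11 (SD, n = 2) in WT and 24 ± 2.71 (SD, n = 3) in DKO, and every mutant library exceeded both WT libraries, as did 5.83% (Pld6 KO), 25.3% (Dnmt3l KO) and 15.7% (DKO) of all tested genes. The log2 fold change against WT was 1.30 ± 0.44 in the Pld6 KO, 1.41 ± 0.49 in the Dnmt3l KO and 1.91 ± 0.46 in DKO (unadjusted p = 0.00106 and FDR = 0.341 by edgeR). In DKO it passed the threshold with DESeq2 (FDR = 0.00922), with DKO and WT fitted alone (FDR = 0.0170) and with a replicate block (FDR = 0.0491). It did not pass with DESeq2 size factors in edgeR, with no low-count filter, with limma on FPKM or with any Pld6 KO or DKO library left out.

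Markers of peritubular and stromal cells, which whole testes also hold, were read beside Pamr1. All 8 were listed, and their sum was 5330 and 7340 CPM in WT, 7630 to 14800 in the Pld6 KO, 6150 and 7960 in the Dnmt3l KO and 8140 to 10000 in DKO. None of the 8 passed the threshold in the Pld6 KO, Dnmt3l KO or DKO against WT by edgeR. Those higher at an unadjusted p under 0.05 numbered 6, 0 and 2, where 3.14%, 6.24% and 5.14% of all genes were. The median log2 fold change of the 8 was 0.59, 0.04 and 0.24. Pld6 KO replicate 4 had both the highest Pamr1 level of that group (29.6 CPM) and the highest stromal sum. Its sums of prospermatogonia markers (527 CPM) and Leydig cell markers (3870 CPM) were also the highest at P0. The part of these cells in the Pamr1 values was not tested.

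Caps2 was rarer but separated as well. It had 2 and 3 counts in the WT, 5 to 12 in the Pld6 KO, 21 and 17 in the Dnmt3l KO and 7, 10 and 19 in DKO, and no mutant library fell to the WT level of 0.252 CPM or below. The log2 fold change was 1.60 ± 0.65 in the Pld6 KO, 2.92 ± 0.67 in the Dnmt3l KO (unadjusted p = 0.000732, FDR = 0.256 by edgeR) and 1.82 ± 0.66 in DKO. With 2 and 3 counts in the WT, Caps2 passed the filter on low counts only through mutant libraries. Its p-values here, that of the interaction below included, are therefore no independent support. Dnmt3l KO replicate 1 had the highest Caps2 level, 1.84 CPM, and replicate 2 was at 1.48 CPM. The 13 L/Z spermatocyte markers summed to 322 CPM in that replicate 1 and 125 CPM in replicate 2, against 101 and 72.6 CPM in WT. In the Dnmt3l KO none of the 13 passed the threshold by edgeR, and their median log2 fold change was 1.57. At an unadjusted p under 0.05, 9 of them were higher, where 6.24% of all genes were. The 11 late germ cell markers summed to 76.6 CPM in Dnmt3l KO replicate 1, 9.63 CPM in replicate 2 and 9.43 and 6.13 CPM in WT. The part of these cells in the Caps2 values was not tested. In DKO, Caps2 lay below both Dnmt3l KO libraries (log2 -1.10 ± 0.50, FDR = 0.274), and its difference in DKO fell short of the sum of the single-mutant differences by 2.70 ± 0.82 on the log2 scale (unadjusted p = 0.00570, FDR = 0.366). The interaction was called for 0% of genes, and the smallest FDR over all genes was 0.341.

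Alox5 had 8 and 7 counts in the WT, 7 to 26 in the Pld6 KO, 12 and 16 in the Dnmt3l KO and 14, 27 and 31 in DKO. Its log2 fold change was 1.31 ± 0.58 (FDR = 0.963), 0.94 ± 0.65 (FDR = 0.545) and 1.33 ± 0.59 (FDR = 0.604), with Pld6 KO replicate 3 at the WT level. The 9 leukocyte markers listed summed to 87.7 and 93.9 CPM in WT and to between 82.7 and 151 CPM in the 9 mutant libraries, and their part in the Alox5 values was not tested. Sntb1 had 26 and 35 counts in the WT and 43, 54 and 115 in DKO, a log2 fold change of 0.80 ± 0.37 (FDR = 0.625), and of 0.35 ± 0.36 and 0.18 ± 0.41 in the Pld6 KO and Dnmt3l KO, where its libraries overlapped WT.

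Robo2 and Sncaip were the most abundant of the 10 genes in the P0 testis. Robo2 was at 99.4 ± 11.9 CPM (SD, n = 2) in WT, 93.2 ± 21.0 (n = 4) in the Pld6 KO, 114 ± 30.4 (n = 2) in the Dnmt3l KO and 88.9 ± 1.78 (n = 3) in DKO. Its log2 fold changes were -0.09 ± 0.21, 0.20 ± 0.24 and -0.16 ± 0.22, and every DKO library (86.8 to 89.9 CPM) lay below both WT libraries (91 and 108 CPM), as did those of 13.4% of all tested genes. The sign in the Pld6 KO turned without WT replicate 2 or without Pld6 KO replicate 3 (0.04 each). Sncaip was at 72.0 ± 1.80 CPM in WT and had log2 fold changes of 0.36 ± 0.20, 0.31 ± 0.22 and 0.12 ± 0.21. Its Pld6 KO libraries (73.9 to 116 CPM) and Dnmt3l KO libraries (74.6 and 104 CPM) lay above both WT libraries (73.2 and 70.7 CPM), the Pld6 KO replicate 3 and Dnmt3l KO replicate 1 narrowly, and 5.83% and 25.3% of all tested genes separated likewise. In FPKM, scaled separately at each stage, WT P0 testes held 20.6 of Sncaip and 12.4 of Robo2, and the mutant L/Z spermatocytes reached 4.79 and 3.53 at most as group means.

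The 4 other genes were at or near 0 at P0 in all genotypes. Gc had 2 and 5 counts in the WT, 1 to 11 in the Pld6 KO, 2 and 3 in the Dnmt3l KO and 5 to 8 in DKO. Afm had 2 in each WT library, 1 to 3 in the Pld6 KO, 4 and 9 in the Dnmt3l KO and 0 to 8 in DKO. Reg2 had 0 in both WT libraries and at most 2 in any mutant library, and Il23r had 0 in WT and DKO, at most 1 in the Pld6 KO and 1 and 6 in the Dnmt3l KO. These counts were too low to be tested, and only Afm and Il23r in the Dnmt3l KO stood above both WT libraries. Of all tested genes 25.3% separated upward in that comparison, so nothing is read from this. Whole testis does not give the level in prospermatogonia alone.

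**Figure D4:**
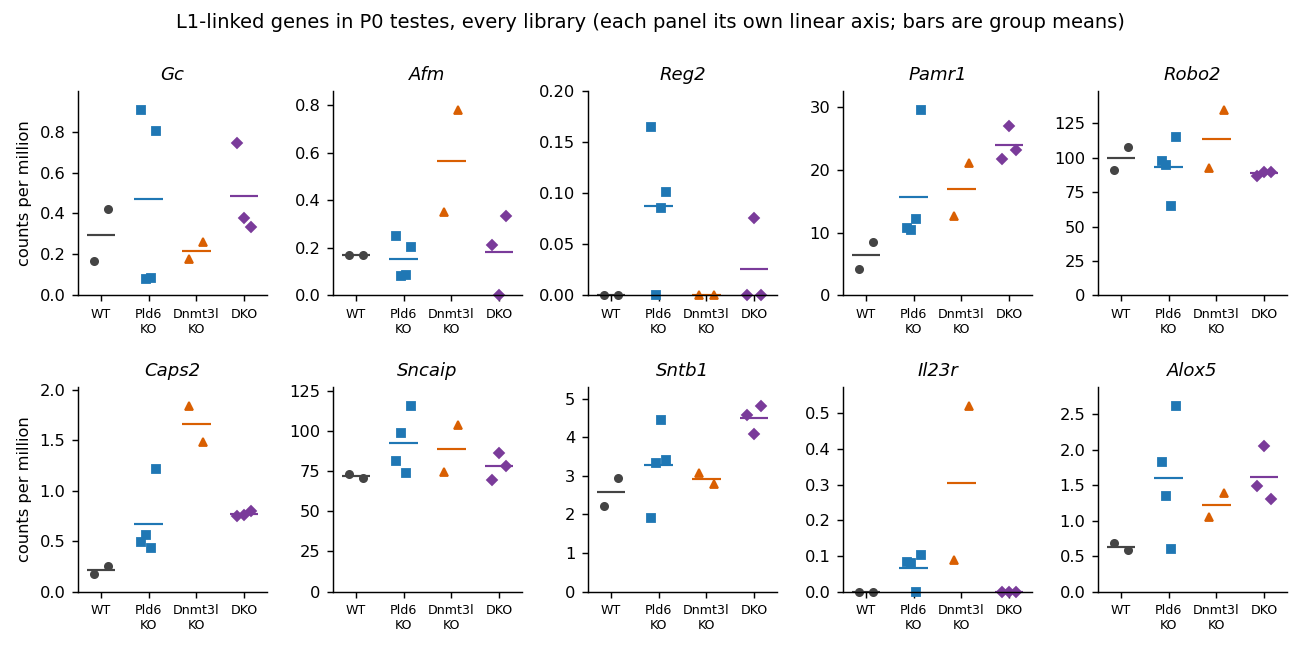
CPM of each L1-linked gene in the 11 P0 libraries; each panel has its own linear axis from 0, points are libraries and bars are group means (2 WT, 4 Pld6 KO, 2 Dnmt3l KO and 3 DKO). All mutant libraries lie above WT for Pamr1 and Caps2, while the log2 fold changes of Robo2 and Sncaip lie between -0.16 and 0.36.

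The DKO did not differ from Pld6 KO at the threshold for any of the 6 genes (0% of all genes called), and the largest difference was Pamr1 at 0.62 ± 0.35 (FDR = 0.844). Against Dnmt3l KO the libraries of Pamr1 and Sntb1 lay above and those of Robo2 and Caps2 below (19.4% of all tested genes lay above and 18.7% below), with a smallest FDR of 0.274 and 0.0755% of genes called. Of the neighbours, 0 of 14 tested at P0 passed the threshold in the Pld6 KO, Dnmt3l KO or DKO against WT by edgeR, with 0, 2 and 2 of them at an unadjusted p under 0.05. Of the pathway genes, 0 of 74 tested passed by edgeR, with 4, 7 and 7 at an unadjusted p under 0.05. Over all genes tested, 5.06%, 12.9% and 7.97% had such a p.

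The 10 profiles ran together over the 6 L/Z libraries: the Pearson correlation of each gene's log2 CPM with the mean of the other 9 was between 0.955 (Reg2) and 0.996 (Pamr1), a description over libraries that share genotype and depth. Genes chosen for low counts in WT and high counts in the mutants must correlate in this way, and nothing is read from it. Among 11025 other genes averaging 50 counts or more, those whose profile was most like the mean of the 10 were Tfcp2l1 (r = 0.995), Wrn (0.994), Magi3 (0.994), Clca4 (0.993) and Zzz3 (0.993), again over 6 libraries. Clca4, a chloride channel accessory gene, also went from near 0 to well above it, with 0 and 1 counts in the WT, 58 and 104 in the Pld6 KO and 99 and 171 in the Dnmt3l KO. The others changed level far less. Tfcp2l1 was at 29.4 and 30.3 CPM in WT, 72.3 and 66.0 in the Pld6 KO and 95.2 and 81.3 in the Dnmt3l KO, and Zzz3 was at 129 and 125, 149 and 153, and 159 and 155 CPM. None of the 5 is on the study's lists of element-linked genes. Nckap1l, the L1-linked gene left out here, was at 4.66 and 2.30 CPM in WT, 23.6 and 16.7 in the Pld6 KO and 36.8 and 22.3 in the Dnmt3l KO.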

How the data were processed

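Poly(A)-selected, strand-specific mRNA libraries were sequenced as 50-bp reads (L/Z) or pairs of 100-bp reads (P0). Per the labels, TopHat and Cuffdiff were used on mm10, and versions are not given in the sources used here. The authors deposited, as an estimated count, the fragments of each gene in each library (97.8% and 97.7% of values whole numbers) and FPKM, which Cuffdiff scaled to length and library. Whether strand was used in counting is not given, so sense and antisense reads may not be told apart for Afm and Caps2. Cuffdiff divides fragments between similar transcripts, so the Reg genes are uncertain. Gene counts do not show which exons were read.

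Estimated counts were rounded and tested with edgeR 4.0.16 (filterByExpr, TMM, quasi-likelihood) in R 4.3.3, 1 fit per stage over all groups, and adjusted by Benjamini-Hochberg over all genes of that fit. A gene was called at an FDR under 0.05 and a fold over 2. Genes with a status other than OK were left out (6 at L/Z, 2 at P0). CPM used the TMM library sizes, and the floor for a group at 0 was 3 counts per library. Intervals and floors cover counting error only, and the labels call replicates biological. Scripts were tested on simulated data. The genes, lists and tests were chosen with earlier results of these data known. Named were the 10 genes, Pld6, Dnmt3l and Nckap1l, Alb, Afp and up to 4 other neighbours by size of change, called pathway genes (at most 4 a list) and the 5 genes most like the mean profile; Il12rb2, March8 and the Reg genes were named after their values were seen. Tables number replicates from 0 and labels from 1, and the lower was taken as the lower. Alternatives were DESeq2 1.42.0, limma 3.58.1 on FPKM, other scaling, filters, blocks and left-out libraries. RefSeq positions (GRCm38.p6) matched 23824 genes.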

Additional observations from a re-analysis of the deposited data

Results flagged for a closer look

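In 2 of the 10 genes, all screened in the group of 4 Pld6 KO libraries at P0, a library stood far from the others. The measure was Dixon's ratio of the gap to the range, at a value that chance exceeds in about 1 in 20 groups. Pamr1 in Pld6 KO replicate 4 was at 29.6 CPM, where the other 3 libraries lay between 10.4 and 12.1 CPM (ratio 0.913). Caps2 in the same library was at 1.21 CPM, where the others lay between 0.428 and 0.556 CPM (ratio 0.835). That library also had the highest sums at P0 of peritubular and stromal markers (14800 CPM), prospermatogonia markers (527 CPM) and Leydig cell markers (3870 CPM). The part of these cells in the Pamr1 and Caps2 values was not tested. Without it, the log2 fold change against WT was 0.80 for Pamr1 and 1.19 for Caps2 in Pld6 KO.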

How the results depend on the processing

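The separation of the 10 genes from WT at L/Z was fixed by how they were chosen, and that it recurs with DESeq2 size factors, with FPKM and with each library left out is no sign of stability. The count of neighbours called in Dnmt3l KO was 0 and became 1 (Afp) with no low-count filter and with DESeq2, and ranged from 0 to 1 over the left-out libraries. The count of pathway genes called in Dnmt3l KO was 3, and became 6 with no low-count filter, 5 with DESeq2 and 1 with limma on log2(FPKM + 0.1), and ranged from 0 (without Dnmt3l KO replicate 1) to 7 (without WT replicate 2). In Pld6 KO both counts were 0 under every alternative. The count of L1-linked genes called at P0 in DKO against WT was 0, and became 1 (Pamr1) with DESeq2, with the compared groups alone and with the replicate block. The log2 fold change of Pamr1 there was 1.91, 1.90 with DESeq2 and 1.94 with the block. The replicate numbers share no stated animal or batch. With the replicate block, 0 of the 10 genes were called in the other P0 comparisons and 3 pathway genes in Dnmt3l KO at L/Z. With the numbers of Dnmt3l KO crossed (same-number deviations correlated with WT at -0.144; chosen after seeing the data), 1 neighbour and 8 pathway genes were called. At P0 the sign turned for Robo2 in Pld6 KO without WT replicate 2 or Pld6 KO replicate 3 (0.04; range over left-out libraries -0.23 to 0.04), for Robo2 in Dnmt3l KO without Dnmt3l KO replicate 2 (-0.13; range -0.13 to 0.44) and for Sntb1 in Dnmt3l KO without WT replicate 1 (-0.05; range -0.05 to 0.39). The cause of these changes was not tested. At L/Z, 7 log2 fold changes under DESeq2 and 31 with a library left out moved by more than the replicate spread, none of them in sign. Depth limits the genes with the fewest counts in WT.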
